A study of Sus scrofa domesticus with 150 samples.

Results

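The late wound center was compared with unwounded skin in pigs with full-thickness excisional wounds. The comparison used 12 of the 150 samples of the series, namely the 6 wound center samples of day 19 and day 21 and the 6 skin samples of day 0, chosen by their labels alone. All came from 6 female domestic pigs of a Yorkshire mix, each with 12 wounds of 2 cm on the back that were dressed and received no other treatment. A skin sample was the whole tissue removed when the wounds were made, and a center sample was a biopsy from the middle of a healing wound. The day 19 centers came from animals 4, 5 and 6 and the day 21 centers from animals 1, 2 and 3, and each animal also gave 1 skin sample. Day of healing and set of animals therefore cannot be told apart, and neither can healing and the different size and depth of the pieces of tissue. All 6 center samples were taken at the wound lettered I, so the late samples also shared 1 wound position.

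A full-thickness wound heals in overlapping steps. Inflammatory cells clear the bed, fibroblasts and new vessels fill it with granulation tissue, keratinocytes move over it from the edge, and the new matrix is remodeled into scar over a long time. Scar is known for dense collagen, for few elastic fibers and for the lack of hair follicles and glands.

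Expression was measured as reads counted on each gene and is given as CPM, the counts scaled to a common library total by TMM, which compares 1 gene between samples but not different genes with each other. Total counts lay between 15698806 and 21415735 per sample, so that 3 counts, taken as the limit of detection, correspond to 0.14 to 0.191 CPM and cover counting error only. Some samples stood apart from their group. The skin of animal 2 was low in hair genes, with KRT71 at 9.04 CPM against a skin median of 3999.8 CPM, and its mean correlation with the other skin samples was 0.945, against 0.965 to 0.972 for the other 5. The day 19 centers of animals 4 and 5 were rich in the wound keratin KRT6C. Fat genes were high in the day 19 center of animal 6 and the day 21 center of animal 3, with the fat cell hormone ADIPOQ at 879 and 1805 CPM against 0.447 to 8.67 CPM in the other 4 centers. Markers of skin were present in all 6 samples labelled as skin, among them the epidermal KRT10, the follicular KRT71 and the dermal COL1A1.

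Of 14746 genes tested, 3711 were higher (25.2%) and 3597 lower (24.4%) in the 6 late centers than in the 6 skin samples, with edgeR's quasi-likelihood test and a Benjamini-Hochberg adjusted p below 0.05, here called. A number in parentheses after a gene is the log2 fold change of center over skin ± its SE, with the adjusted p added where it exceeds 0.005 or where the gene is a main example. At least a 2-fold difference was seen for 1908 of the higher and 1604 of the lower genes. Every center sample lay above every skin sample for 2409 genes (16.3%) and below every one for 1961 genes (13.3%). Tested alone, day 19 gave 3337 higher (22.6%) and 3095 lower (21.0%) genes, and day 21 gave 3172 higher (21.5%) and 2862 lower (19.4%), of which 2670 and 2155 were called on both days in the same direction. With the animal as a replicate block, which takes out differences between animals, the lower genes of day 19 numbered 1978. The median log2 fold change of all genes was -0.023 with TMM scaling and -0.20 with scaling by library size alone, under which 2873 genes were higher and 5141 lower.

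Likeness to skin was judged by the 95% interval of the fold change, and a gene was taken as within 2-fold of skin when the whole interval lay inside a 2-fold difference in either direction. This held for 7843 genes (53.2%), of which 5439 were not called and 2404 were called with a difference under 2-fold. A further 4904 genes were called and not within 2-fold, and for 1999 genes (13.6%) the data set neither a difference nor a level within 2-fold. Whether a gene within 2-fold had left the level of skin on earlier days was not tested, so it need not have returned. In the plot of gene lists the shares called higher and lower are shown for each of 48 lists of marker and pathway genes. Among all genes the shares were 25.2% higher, 24.4% lower and 53.2% within 2-fold. A count near its share does not set a list apart from other genes. The lists were drawn up with earlier results of these data known, so a count far from its share is no independent result.

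**Figure D1:**
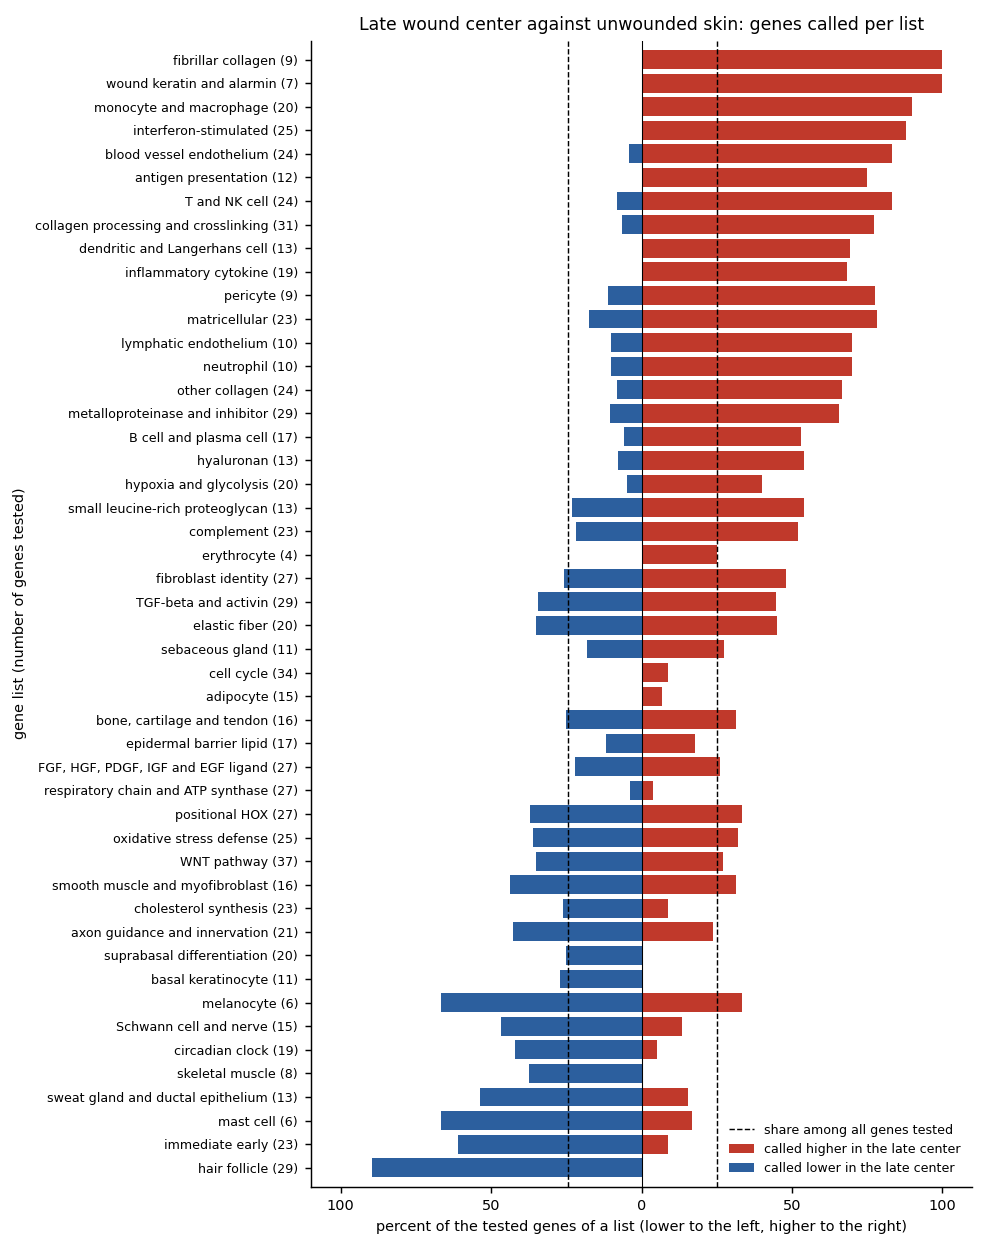
Percent of the tested genes of each of 48 lists that were called higher (to the right) or lower (to the left) in the 6 late center samples against the 6 skin samples, with the number tested beside each list; the dashed lines mark the shares among all genes, 25.2% higher and 24.4% lower. All 7 tested members of the wound keratin and alarmin list and all 9 fibrillar collagens were called higher, and hair follicle genes lower in 26 of 29. The lists were chosen with earlier results of these data known.

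Most genes of the differentiated epidermis were neither called nor shown to be within 2-fold of skin. KRT10, the main keratin of the spinous layer, was at 8889 to 24839 CPM (median 17141) in skin, at 4198, 167 and 18315 CPM in the day 19 centers of animals 4, 5 and 6, and at 17444, 18151 and 22249 CPM in the day 21 centers of animals 1, 2 and 3. The center of animal 5 stood far below all other samples and the other 5 lay between 4198 and 22249 CPM, so that the pooled log2 fold change was -0.39 ± 0.69 (SE) with an adjusted p of 0.667, and its sign turned to 0.12 when the samples of animals 4 and 5 were left out on day 19. KRT1, its partner keratin, lay at 135 to 10542 CPM on day 19 and 14446 to 17299.8 CPM on day 21 against 6278 to 20653 CPM in skin. Of 20 suprabasal genes tested, 0 were called higher and 5 lower, the latter near the 24.4% of all genes. Within 2-fold of skin lay 2, and 14 were neither called nor within 2-fold. The number called higher was 3 without the day 19 center of animal 6 and 2 with DESeq2. In bulk tissue such values cannot tell fewer cells of a type from less RNA per cell.

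KRT77 was the exception among the suprabasal keratins. This type II keratin was at 699 to 1599.9 CPM (median 1056) in skin. It stood at 0.0638, 0.174 and 4.45 CPM on day 19 and 8.92, 6.73 and 12.7 CPM on day 21, with no overlap between the groups. It fell by 7.72 ± 0.91 (SE) on the log2 scale (adjusted p = 1.29e-05), and the day 21 centers were low in it while their KRT1 and KRT10 lay within the range of skin. The other called members were TGM3, a transglutaminase of the cornified envelope (-1.61 ± 0.35), SPINK5, an inhibitor of the proteases that shed the horny layer (-1.39, adjusted p = 0.0179), SBSN (-0.83, adjusted p = 0.00615) and TGM1 (-0.56 ± 0.14). Of 17 genes of barrier lipid synthesis, 7 were within 2-fold of skin, 3 were called higher and 2 lower, the latter being the fatty acid hydroxylase FA2H (-2.58, adjusted p = 0.0398) and PNPLA1 (-0.89, adjusted p = 0.0273). FA2H was not called without any of 5 of 12 single samples (adjusted p up to 0.0955), and PNPLA1 without any of 3 of 12 single samples (adjusted p up to 0.0606). Among the higher genes, ASAH1 and ELOVL1, which act in ceramide turnover and chain elongation, differed by 0.57 and 0.54 on the log2 scale, and ASAH1 lost its call without 7 of 12 single samples (adjusted p up to 0.0875).

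Of 11 basal keratinocyte genes tested, 3 were called lower, near the 24.4% of all genes, and 0 higher over both days. Day 19 alone gave 3 higher and 2 lower, and day 21 alone 0 higher and 4 lower, and without any single day 21 center 2 were called higher over both days. Lower were KRT5 (-0.86, adjusted p = 0.00684), the stem cell factor TP63 (-0.82 ± 0.14) and DST (-0.34, adjusted p = 0.0135), and 5 of 11 were within 2-fold of skin. KRT15, a keratin of basal cells, was not called and lay on either side of skin. It was at 20557, 14499.5 and 3267 CPM on day 19 and 5765, 3304 and 3338 CPM on day 21 against 4640.3 to 6854 CPM (median 5275) in skin.

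Keratins and alarmins of activated epidermis were still high, and all 7 tested members of that list were called higher, 3 of them without overlap. KRT6C and KRT6B were the only keratins among them, since KRT6A, KRT16 and KRT17 were not matched by name. KRT6C stood at 25104, 16671 and 2704 CPM on day 19 and 8179.8, 2728 and 2213 CPM on day 21 against 430.2 to 993 CPM (median 844) in skin. Every center sample exceeded every skin sample, and the fold changes were 4.27 on day 19 and 2.51 on day 21 on the log2 scale (pooled adjusted p = 0.00027). S100A8, an antimicrobial subunit of calprotectin made by neutrophils and by stressed keratinocytes, was spread more widely, with 400.1, 913 and 24.6 CPM on day 19, 326, 9.64 and 1.33 CPM on day 21 and 0.612 to 3.02 CPM (median 1.73) in skin. Its partner S100A9 (7.98 ± 1.39), S100A12 (6.20 ± 1.19), the serpin SERPINB3 (6.20 ± 0.83), KRT6B (2.37 ± 0.55) and the epidermal cytokine IL36G (3.52 ± 0.79) made up the rest. With the day 21 animals alone, S100A8, S100A12 and KRT6B were no longer called.

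**Figure D2:**
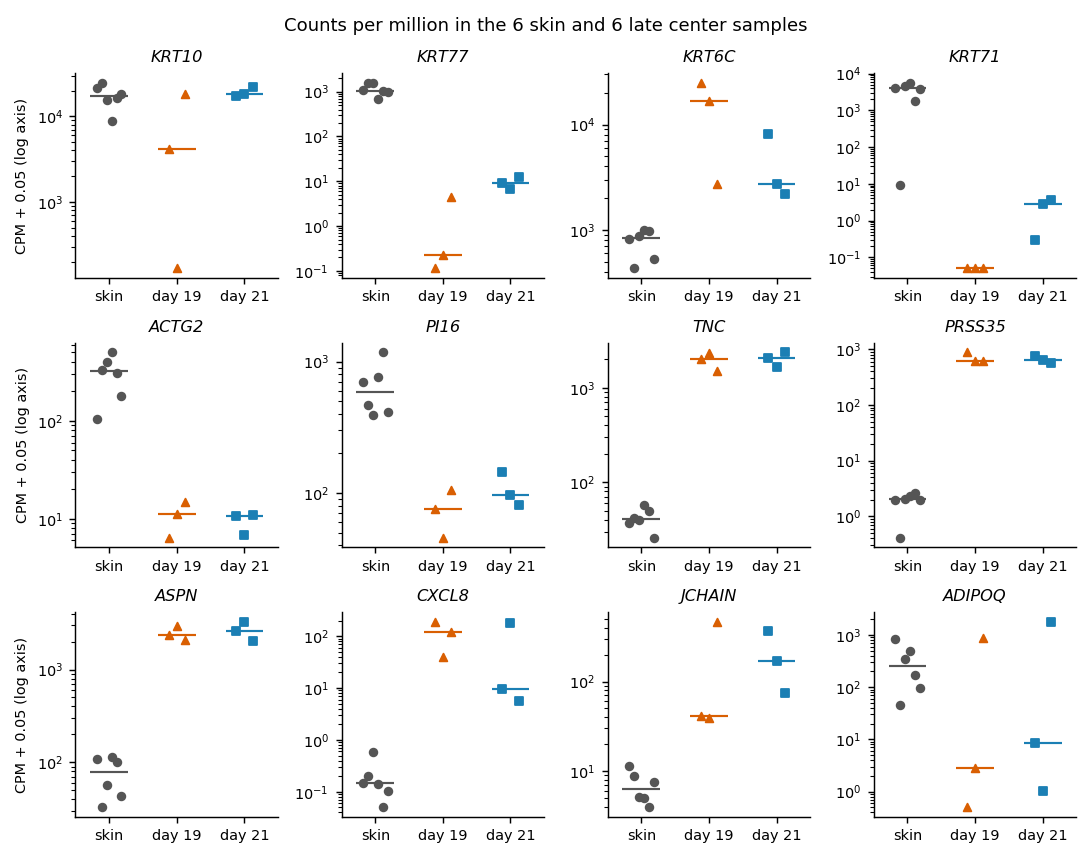
Expression of 12 genes in each sample on a logarithmic axis of CPM + 0.05, for skin (gray circles, n = 6), day 19 centers (orange triangles, n = 3) and day 21 centers (blue squares, n = 3), with a line at each median. KRT10 overlapped between groups while KRT77, KRT71, ACTG2 and PI16 lay below skin and KRT6C, TNC, PRSS35, ASPN and CXCL8 above it in every center sample, and ADIPOQ divided the centers. For PRSS35 and CXCL8 the rule of choice had required the lack of overlap.

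Hair follicle genes had almost no signal in the late wound center. KRT71, a keratin of the inner root sheath, was at 9.04 to 5728 CPM (median 3999.8) in skin. The day 19 centers had 0, 0 and 0 CPM and the day 21 centers 0.249, 2.85 and 3.5 CPM (log2 fold change -11.53 ± 1.61 (SE), adjusted p = 5.33e-05). KRT31, a keratin of the hair cortex, was at 2.52 to 1644 CPM (median 842) in skin and 0 to 0.212 CPM in the centers. KRTAP9-3, a hair keratin-associated protein, had 0 counts in all 6 centers against 0.565 to 2681 CPM (median 1020.1), at least 6090-fold below the skin mean. The lowest skin values of KRT71, KRT31 and KRTAP9-3 were those of animal 2. Trichohyalin (TCHH), the crosslinked filler of the inner root sheath, reached 0.212 CPM at most in a center against 1.23 to 615 CPM (median 489) in skin. Of 29 follicle genes tested, 26 were called lower and 0 higher, with a median log2 fold change of -8.71, or -8.10 with genes at 0 in the centers set to their bound. The 3 not called were the placode receptor EDAR (-0.40, adjusted p = 0.321), the stem cell receptor LGR6 (-1.23, adjusted p = 0.0928) and LHX9 (0.0077, adjusted p = 0.993). Among regulators, LHX2 fell by 8.08, HOXC13 by 3.69, FOXN1 by 2.90 and DLX3 by 2.37 on the log2 scale, whereas MSX2 (-1.39, adjusted p = 0.031) was not called with the animal as a block (adjusted p = 0.171) or without 7 of 12 single samples (adjusted p up to 0.0881). The 3 centers of day 21 held small amounts of root sheath keratins (0.249 to 3.5 CPM of KRT71 and 0.624 to 3.18 CPM of KRT27), where those of day 19 held 0 CPM of KRT71 and 0.191 to 1.34 CPM of KRT27. Neither gene was called between the days. Such traces came and went on earlier days. Scaled over all 150 samples, the center median of KRT71 was 2.81 CPM on day 4, 0 CPM on days 11 and 13 and 4.22 CPM on day 15, and that of KRT27 was 3.62 CPM on day 15.

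Glandular genes were divided. PIP, a secreted protein of sweat and apocrine glands, had 0 counts in all 6 centers against 22.9 to 338 CPM (median 119) in skin, at least 861-fold lower. Simple epithelial keratins KRT7 (log2 fold change -5.62 ± 0.49 (SE), adjusted p = 1.05e-06) and KRT18 (log2 fold change -6.10 ± 0.86 (SE), adjusted p = 5.19e-05) fell as well, as did the tight junction protein CLDN8, which had 0 counts in every center and was at least 224-fold lower. KRT8 (-5.42 ± 0.74) is named by 2 genes of the table, and reads may be split between them. Of 13 sweat gland and ductal genes, 7 were called lower and 2 higher, among the latter carbonic anhydrase CA2 (1.28, adjusted p = 0.0319), which was not called with the animal as a block (adjusted p = 0.0801) or without 7 of 12 single samples (adjusted p up to 0.101). Of 11 sebaceous genes, KRT79 fell from 48.0 to 135 CPM (median 97.5) to 0 to 1.27 CPM and the wax synthase AWAT2 had 0 counts in all 6 centers, at least 6.92-fold lower than in skin. SOAT1 (3.05 ± 0.22), FADS2 (2.51 ± 0.24) and FAR2 (1.70 ± 0.27), enzymes of cholesterol ester, fatty acid and fatty alcohol synthesis that other cells also use, were higher. The summed sebaceous list was 7188 CPM in the day 21 center of animal 3, which also had the most ADIPOQ, and 381 to 761 CPM in the other centers, and the part of either in the lipid genes was not tested.

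Genes of cells that come from the neural crest were lower in part. SOX10, the shared regulator of melanocytes and Schwann cells, was at 4.74 to 9.66 CPM (median 7.7) in skin. Day 19 gave 0.255, 2.9 and 2.16 CPM and day 21 1.5, 1.15 and 2.17 CPM (log2 fold change -2.10 ± 0.40 (SE), adjusted p = 0.000684). PMP2, a lipid-binding protein of peripheral myelin, fell by 6.49 ± 0.92 on the log2 scale, from 0.565 to 30.4 CPM (median 12.6) to 0 to 0.51 CPM, and the myelin gene MBP by 0.92 (adjusted p = 0.000404). Of 15 Schwann cell and nerve genes, 7 were lower and 2 higher, L1CAM (2.05 ± 0.29) and CNP (0.61, adjusted p = 0.00978). Of 12 melanocyte genes found, 6 had enough counts to be tested, and the pigment cell genes TYR, TYRP1, DCT and MLANA were not among them. Of the 6 tested, 4 were lower and 2 higher over both days, while day 21 alone gave 1 lower and 0 higher. MITF (-0.86 ± 0.22) and RAB38 (-0.80, adjusted p = 0.009) were lower, and PMEL (-0.97, adjusted p = 0.0293) lost its call with the animal as a block (adjusted p = 0.057) and without 7 of 12 single samples (adjusted p up to 0.0631). The higher members were SLC45A2 (1.53, adjusted p = 0.027), not called without the day 19 center of animal 6 (adjusted p = 0.0554), and GPR143 (0.74, adjusted p = 0.031), not called without 7 of 12 (adjusted p up to 0.0795). Among 21 axon guidance genes, 9 were lower and 5 higher, the latter near the 25.2% of all genes. SEMA3E was at -4.02 ± 0.35 and the neurotrophic factor GDNF at 2.67 ± 0.31.

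Of 16 smooth muscle and myofibroblast genes, 7 were called lower and 5 higher, beside 24.4% lower and 25.2% higher among all genes. ACTG2, the smooth muscle gamma-actin, fell from 104 to 503 CPM (median 319) to 6.32, 11.1 and 14.8 CPM on day 19 and 10.6, 6.79 and 10.8 CPM on day 21 (log2 fold change -4.92 ± 0.38 (SE), adjusted p = 3.91e-07). Lower too were the intermediate filament protein SYNM (-3.09 ± 0.25), the smooth muscle myosin MYH11 (-2.92 ± 0.29), CNN1 (-2.18 ± 0.30) and DES (-2.08 ± 0.31). ACTA2, the alpha-actin of smooth muscle and myofibroblasts, was at 272 to 576 CPM (median 369.6) in skin. Its levels were 288, 339.6 and 253 CPM on day 19 and 307, 169 and 213 CPM on day 21, with overlap (-0.56, adjusted p = 0.0344). It was not called with the animal as a block (adjusted p = 0.0632) or without 6 of 12 single samples (adjusted p up to 0.0805). CALD1 (1.57 ± 0.14) and ACTN1 (1.04 ± 0.19), which serve non-muscle cells too, and the muscle tropomyosin TPM2 (0.79, adjusted p = 0.0117) were higher, and 6 of the 16 genes were within 2-fold of skin. Skeletal muscle genes were low in every sample, with 3 of 8 called lower, among them CKM (-4.39 ± 0.56).

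Collagen genes were still above skin, and all 9 fibrillar collagens tested were called higher, with a median log2 fold change of 2.96. COL1A1, the main collagen of dermis and scar, was at 11074 to 43536 CPM (median 17949.7) in skin. In the centers it was at 64709.9, 46102 and 49609.7 CPM on day 19 and 69185, 47128 and 47664 CPM on day 21, without overlap (log2 fold change 1.24 ± 0.30 (SE), adjusted p = 0.0035). COL3A1 (1.15 ± 0.25) and COL1A2 (0.92, adjusted p = 0.0149) differed by a like amount. Minor fibrillar chains differed more, with COL5A2 at 3.23 ± 0.24, COL5A1 at 2.96 ± 0.26, COL27A1 at 3.28 ± 0.12, COL24A1 at 4.01 ± 0.31 and COL11A1 at 4.47 ± 0.45. COL11A1, a chain best known from cartilage, was at 5.8 to 42.0 CPM (median 15.6) in skin. Center levels were 572, 246 and 363 CPM on day 19 and 626, 488 and 365 CPM on day 21. Over the 9 fibrillar collagens the median log2 fold change was 3.02 on day 19 and 2.90 on day 21, and none was called between the days.

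Of 24 other collagens, 16 were higher and 2 lower. COL9A2 (log2 fold change 5.35 ± 0.42 (SE), adjusted p = 3.94e-07) and COL26A1 (4.43 ± 0.41) led. They were followed by COL8A1 (3.52 ± 0.44), COL16A1 (3.42 ± 0.21) and COL12A1 (2.69 ± 0.22). The basement membrane chains COL4A1 (2.31 ± 0.24) and COL4A2 (2.10 ± 0.24) were higher as well. COL7A1, the anchoring fibril collagen that holds epidermis to dermis, rose by 1.33 (adjusted p = 0.000194). Lower were COL23A1 (-2.83 ± 0.22) and COL6A5 (-2.77 ± 0.60), and COL14A1, which binds fibril surfaces, was within 2-fold of skin (-0.24, interval -0.65 to 0.17). Of 31 genes that modify, fold or crosslink collagen, 24 were higher and 2 lower. LOXL2, a lysyl oxidase that crosslinks collagen, was at 25.1 to 63.2 CPM (median 36.8) in skin. It stood at 859, 701 and 797 CPM on day 19 and 729, 564 and 578 CPM on day 21 (log2 fold change 4.13 ± 0.22 (SE), adjusted p = 2.18e-08). PLOD2, the lysyl hydroxylase that shapes crosslinks of the scar type, rose by 3.67 ± 0.16 (adjusted p = 6e-09). LOX itself was not called (0.16, adjusted p = 0.668), and LOXL4 (-2.01 ± 0.29) and the prolyl hydroxylase P3H2 (-1.89 ± 0.17) were lower.

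**Figure D3:**
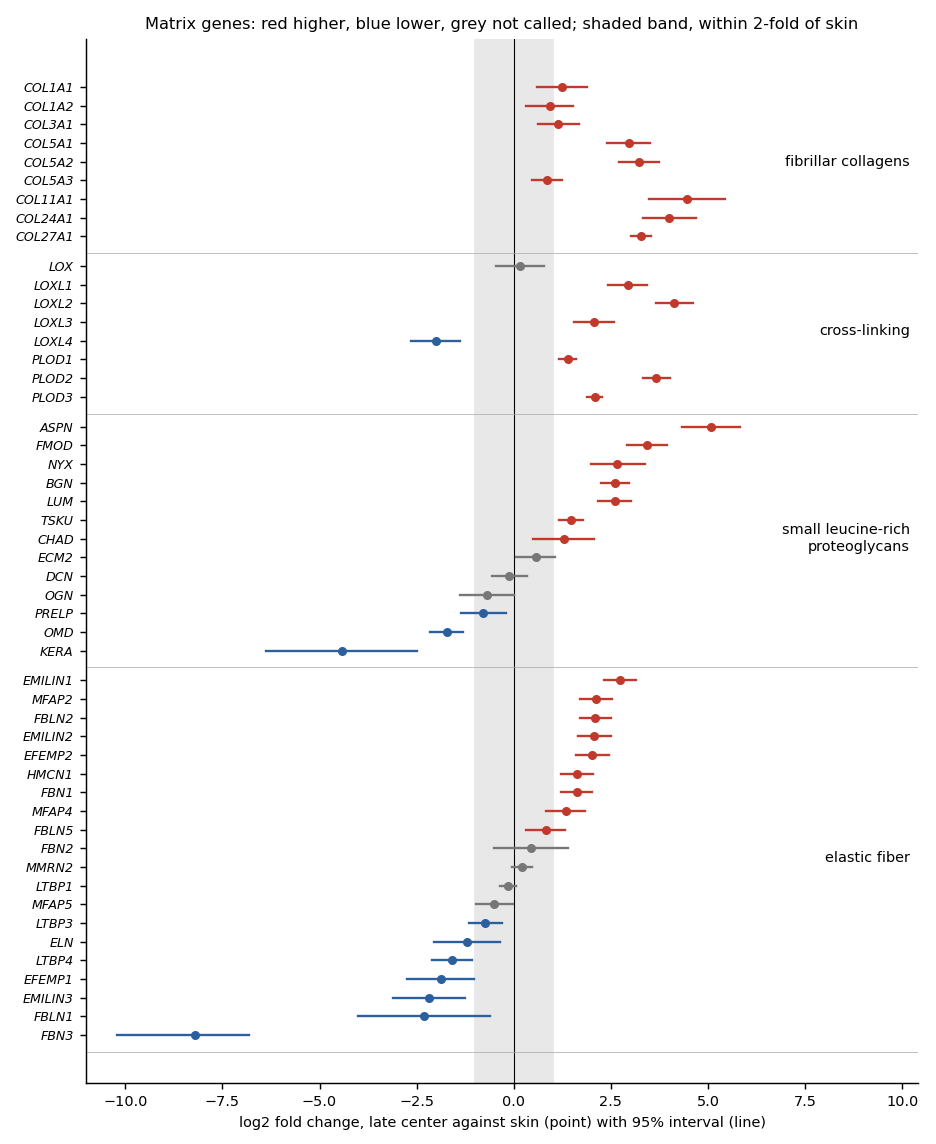
Log2 fold change of the late center over skin with its 95% interval for fibrillar collagens, collagen crosslinking enzymes, small leucine-rich proteoglycans and elastic fiber genes; red points were called higher, blue ones lower and gray ones not, and the shaded band marks a 2-fold difference in either direction. ASPN, COL11A1 and LOXL2 lie far above the band, DCN and LTBP1 inside it, and KERA and FBN3 far below.

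Proteins that regulate matrix assembly were mostly higher. TNC (tenascin-C), a glycoprotein of wounds and of developing tissue, was at 25.6 to 56.8 CPM (median 40.5) in skin. The day 19 centers had 2019.5, 2356 and 1523 CPM and the day 21 centers 2047, 1659.9 and 2390.2 CPM (log2 fold change 5.58 ± 0.22 (SE), adjusted p = 4.33e-09). CTHRC1 (4.20 ± 0.31), TGFBI (3.70 ± 0.20), fibronectin FN1 (2.82 ± 0.24), THBS2 (2.57 ± 0.22) and VCAN (2.46 ± 0.18) were also higher, and 18 of 23 matricellular genes were called higher. POSTN (periostin), already abundant in skin at 2594 to 6069.5 CPM, had a log2 fold change of 0.63, adjusted p = 0.0358, and was not called with the animal as a block (adjusted p = 0.0891) or without 8 of 12 single samples (adjusted p up to 0.0784). Lower were SMOC1 (-2.99, adjusted p = 0.0102), CCN3 (-2.47 ± 0.46), TNXB (-2.10, adjusted p = 0.021) and SPARCL1 (-1.73 ± 0.34). TNXB organizes the fibrils of mature dermis, and its levels of 2.11, 1.57 and 13.5 CPM on day 19 and 2.12, 0.606 and 20.1 CPM on day 21 overlapped with the 16.0 to 49.3 CPM (median 25.8) of skin.

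Small leucine-rich proteoglycans, which set the spacing and width of collagen fibrils, were split. Asporin (ASPN) was at 32.5 to 114 CPM (median 78.7) in skin. Day 19 gave 2388, 2984 and 2096 CPM and day 21 2611, 3292 and 2031 CPM (log2 fold change 5.08 ± 0.34 (SE), adjusted p = 1.21e-07). Fibromodulin (FMOD, 3.42 ± 0.24), biglycan (BGN, 2.61 ± 0.17) and lumican (LUM, 2.60 ± 0.20) were higher. Decorin (DCN), the abundant proteoglycan of normal dermis, was within 2-fold of skin (-0.11, 95% interval -0.57 to 0.35). Keratocan (KERA) was at 30.6 to 165 CPM (median 87.5) in skin and 0.232 to 13.8 CPM in the centers (log2 fold change -4.43 ± 0.90 (SE), adjusted p = 0.00109), and OMD (-1.73 ± 0.20) was lower. PRELP (-0.78, adjusted p = 0.0289) was not called without 7 of 12 single samples (adjusted p up to 0.0776).

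Elastic fiber genes differed from skin in both directions. Elastin (ELN) was at 313 to 733 CPM (median 381) in skin. Its levels were 94.0, 91.1 and 389 CPM on day 19 and 127, 108 and 355 CPM on day 21. The centers of animals 6 and 3, the ones rich in fat genes, lay within the range of skin and the other 4 below it (log2 fold change -1.20 ± 0.40 (SE), adjusted p = 0.0228), and ELN was not called without the skin of animal 5 or the day 21 center of animal 2 (adjusted p up to 0.0563). FBN3, a fibrillin, fell from 2.57 to 18.8 CPM (median 11.7) to 0 to 0.121 CPM (adjusted p = 1.71e-06). LTBP4 (-1.59 ± 0.24), which is needed for elastin assembly, EFEMP1 (-1.88 ± 0.40), FBLN1 (-2.32, adjusted p = 0.0256) and EMILIN3 (-2.18 ± 0.43) were lower. The microfibril genes FBN1 (1.62 ± 0.19), MFAP2 (2.11 ± 0.19), EMILIN1 (2.74 ± 0.19) and EFEMP2 (2.02 ± 0.20) were higher. In all, 9 of 20 genes were called higher and 7 lower.

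RNA of matrix proteases was still high. MMP13, a collagenase, was at 0 to 0.565 CPM (median 0.395) in skin. In the centers it was at 99.5, 115 and 37.5 CPM on day 19 and 24.1, 92.6 and 17.3 CPM on day 21 (log2 fold change 7.50 ± 0.67 (SE), adjusted p = 1.27e-06). MMP9, a gelatinase, was at 2.19 to 5.19 CPM (median 2.85) in skin, 1258, 947 and 206 CPM on day 19 and 309, 463 and 154 CPM on day 21 (log2 fold change 7.47 ± 0.60 (SE), adjusted p = 5.08e-07). ADAM12, a metalloproteinase of activated mesenchymal cells, was at 3.75 to 12.2 CPM (median 9.12) in skin, 682, 622 and 599 CPM on day 19 and 768, 699 and 519.8 CPM on day 21 (log2 fold change 6.20 ± 0.28 (SE), adjusted p = 7.23e-09). None of these overlapped with skin, which the rule of choice had required of MMP13 and MMP9. MMP1 (6.93 ± 0.81), MMP11 (3.98 ± 0.25), MMP14 (3.02 ± 0.16) and MMP2 (2.84 ± 0.27) were higher, and 19 of 29 genes of the list were called higher. Of the inhibitors, TIMP1 (2.08 ± 0.21) and TIMP2 (2.27 ± 0.21) were higher, and TIMP3, a name carried by 2 genes of the table, was lower (-2.17 ± 0.36). MMP7 (-5.94 ± 0.65), an epithelial enzyme of glands, and MMP27 (-2.12 ± 0.40) were lower. Among 13 hyaluronan genes, 7 were higher, led by CEMIP2 (3.19 ± 0.18), and HAPLN1, a link protein, was lower, at 0 to 0.121 CPM in the centers against 0.836 to 5.35 CPM in skin.

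The genes that stood farthest above skin included several that were near 0 before wounding. PRSS35, a secreted protein related to serine proteases, was at 0.359 to 2.55 CPM (median 1.98) in skin. Center levels were 892, 619.9 and 628 CPM on day 19 and 769, 635 and 562 CPM on day 21 (log2 fold change 8.53 ± 0.38 (SE), adjusted p = 6e-09). TCF21, a transcription factor of mesenchymal cells, and MLNR, the motilin receptor, had 0 counts in all 6 skin samples and 4.2 to 6.44 CPM and 4.3 to 9.34 CPM in the centers, at least 32.8-fold and 38.5-fold higher. AOX4, an aldehyde oxidase, had 1 count in skin in all and reached 6.06, 0.928 and 6.49 CPM on day 19 and 3.18, 4.31 and 9.39 CPM on day 21, and ERP27, a protein of the endoplasmic reticulum, had 2 counts in skin and reached 3.52 to 11.3 CPM. TNFRSF8 (CD30), a receptor of activated lymphocytes, was at 0 to 1.45 CPM (median 0.728) in skin and 91.4 to 193 CPM in the centers (log2 fold change 7.62 ± 0.47 (SE), adjusted p = 6.06e-08). ECE2, a symbol of 2 genes, was at 0 to 0.514 CPM in skin and 30.9 to 51.0 CPM in the centers (log2 fold change 7.50 ± 0.47 (SE), adjusted p = 6.57e-08).

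Fibroblast genes differed from skin in both directions. PI16, a marker of resting adventitial fibroblasts, was at 395 to 1183 CPM (median 585) in skin. It stood at 75.0, 45.5 and 106 CPM on day 19 and 144, 96.1 and 80.8 CPM on day 21 (log2 fold change -2.84 ± 0.32 (SE), adjusted p = 9.59e-06). PDGFRA (1.46 ± 0.14), PDGFRB (2.16 ± 0.22), FAP (1.46 ± 0.16), PRRX1 (1.61 ± 0.21), TWIST2 (1.79 ± 0.23) and EN1 (1.84 ± 0.24) were higher. So were the skeletal regulator RUNX2 (3.27 ± 0.24) and the tendon gene TNMD (3.68 ± 0.55). Lower were the papillary dermal genes APCDD1 (-1.37 ± 0.32) and NKD2 (-1.77 ± 0.37). CD34 (-0.15, interval -0.62 to 0.32), DPP4 (-0.081, interval -0.54 to 0.38) and SLIT2 (0.079, interval -0.30 to 0.46) were within 2-fold of skin. Of the 27 genes, 13 were higher and 7 lower, the latter near the 24.4% of all genes. LRRC15, a marker of fibroblasts that respond to TGF-beta, was below skin, at 32.6, 27.3 and 26.4 CPM on day 19 and 30.2, 29.4 and 30.6 CPM on day 21 against 1.95 to 232 CPM (median 128) (-2.12, adjusted p = 0.0115; 0.0937 with the animal as a block). SOST, which encodes the WNT inhibitor sclerostin, was at 1.73 to 11.0 CPM in skin and 0 to 0.212 CPM in the centers.

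In the TGF-beta family both ligands and receptors included higher and lower genes. Among ligands, TGFB1 (2.41 ± 0.14), TGFB3 (1.91 ± 0.21) and the activin subunit INHBA (4.25 ± 0.23) were higher, and TGFB2 was within 2-fold (0.28, interval -0.16 to 0.71). The ligands BMP2 (-1.92 ± 0.15), BMP4 (-1.34 ± 0.27) and BMP7 (-1.01 ± 0.16) were lower. INHBA was at 1.9 to 3.72 CPM (median 3.35) in skin. The day 19 centers had 55.4, 81.3 and 56.0 CPM and the day 21 centers 82.5, 43.5 and 41.3 CPM. The receptors TGFBR1 (0.63 ± 0.12) and TGFBR2 (0.90 ± 0.11) were higher and the coreceptor TGFBR3 (-1.11 ± 0.22) lower. The antagonists GREM1 (-1.53 ± 0.35), BAMBI (-3.06 ± 0.60) and FST (-1.54, adjusted p = 0.0136) were lower. Over the whole list 13 of 29 genes were higher and 10 lower.

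In the WNT pathway ligands differed in both directions. Lower were WNT7B at -1.94 ± 0.20, WNT4 at -1.62 ± 0.23, WNT3 at -1.34 ± 0.27 and WNT6 at -2.01 ± 0.35. The ligands WNT2, WNT5A and WNT5B were higher. WNT2 was at 0.306 to 4.25 CPM (median 1.63) in skin. Day 19 gave 33.8, 31.1 and 21.6 CPM and day 21 26.8, 37.0 and 20.5 CPM (log2 fold change 3.92 ± 0.41 (SE), adjusted p = 5.37e-06). WNT5A was at 1.79 ± 0.16 and WNT5B at 1.38 ± 0.21 on the log2 scale. The secreted inhibitor SFRP2 rose by 4.33 ± 0.37 (adjusted p = 7.79e-07), whereas WIF1 (-3.49 ± 0.59) and DKK2 (-1.74 ± 0.36) fell, and LGR5, a receptor that amplifies WNT signals in follicle stem cells, fell from 27.9 to 52.6 CPM (median 33.8) to 1.14 to 2.93 CPM. The target AXIN2 was not called (-0.20, interval -0.53 to 0.13). In the list 10 of 37 genes were higher, near the 25.2% of all genes, and 13 lower. Among 27 growth factors, HGF (2.78 ± 0.26) and PDGFD (2.45 ± 0.23) were higher and BTC (-3.13 ± 0.75) and FGF18 (-3.34 ± 0.64) lower. The ligand EREG (1.94, adjusted p = 0.0273) was not called with the animal as a block (adjusted p = 0.265) or without 3 of 12 single samples (adjusted p up to 0.0973).

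In most immune lists more genes were called higher than lower. CXCL8, the neutrophil chemoattractant, was at 0 to 0.533 CPM (median 0.0962) in skin. Its levels were 191, 39.7 and 119.9 CPM on day 19 and 9.73, 176 and 5.62 CPM on day 21 (log2 fold change 9.18 ± 1.12 (SE), adjusted p = 1.7e-05). Each center exceeded skin, which the rule of choice had required of CXCL8, and the centers differed widely among themselves. Of 19 inflammatory cytokines 13 were called higher and 0 lower, among them CCL2 (2.24 ± 0.24), IL10 (2.91 ± 0.48), CCL8 (3.71 ± 0.45) and CXCL2 (2.73 ± 0.61). IL1A (0.30, interval -0.33 to 0.94) and IL33 (0.25, interval -0.21 to 0.71), which keratinocytes store, were not called. IL1B was below the filter on counts, with 1.02, 0.754 and 0.382 CPM on day 19 and 2.06, 2.3 and 0.106 CPM on day 21 and 6 counts over all skin samples.

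Macrophage genes were higher in 18 of 20 tested, with a median log2 fold change of 2.11. TREM2, a lipid receptor of macrophages, was at 0.233 to 1.13 CPM (median 0.617) in skin. In the centers it was at 19.9, 15.5 and 11.4 CPM on day 19 and 9.17, 38.0 and 9.28 CPM on day 21 (log2 fold change 4.75 ± 0.48 (SE), adjusted p = 3.25e-06). MSR1 (4.57 ± 0.39), CD68 (2.26 ± 0.31) and C1QC (2.29 ± 0.25) were higher too. ARG1, an arginase of myeloid cells and of epidermis, was at 0 to 1.68 CPM (median 0.889) in skin, 67.9, 488 and 31.6 CPM on day 19 and 31.6, 29.5 and 2.55 CPM on day 21 (log2 fold change 6.90 ± 1.18 (SE), adjusted p = 0.000291). For neutrophils 7 of 10 were higher, with CSF3R at 3.14 ± 0.42, and LTF (lactoferrin), which glands also secrete, was lower (-6.37 ± 0.63). Of 6 mast cell genes 4 were lower and 1 higher over both days, while day 21 alone gave 1 lower and 0 higher. The receptor KIT was higher (0.73, adjusted p = 0.022) but not without the skin of animal 1 or the day 19 center of animal 5 (adjusted p up to 0.0536). Lower were MS4A2 (-0.94, adjusted p = 0.00796), FCER1A (-1.11, adjusted p = 0.0105) and GATA2 (-0.85, adjusted p = 0.0159), and HPGDS (-2.34, adjusted p = 0.0205), whose call was lost without the skin of animal 2 (adjusted p = 0.0568).

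Lymphocyte genes were mostly higher. Of 24 T and NK cell genes 20 were called higher, with a median of 2.55. ICOS, a costimulatory receptor of activated T cells, was at 0 to 0.187 CPM (median 0.0255) in skin. Center levels were 3.83, 5.16 and 2.04 CPM on day 19 and 4.37, 6.73 and 1.43 CPM on day 21 (log2 fold change 5.87 ± 0.71 (SE), adjusted p = 1.25e-05). CD3E rose by 2.76 (adjusted p = 2.12e-05) and CD2 by 2.70 (adjusted p = 1.57e-06). FOXP3, the regulator of suppressive T cells, was not called (0.17, interval -0.88 to 1.22), and GATA3 (-2.63 ± 0.27), which keratinocytes also express, was lower. JCHAIN, which joins secreted IgM and IgA, was at 3.88 to 11.5 CPM (median 6.34) in skin. It stood at 41.3, 39.0 and 467 CPM on day 19 and 370.4, 168 and 74.7 CPM on day 21 (log2 fold change 4.80 ± 0.67 (SE), adjusted p = 5.39e-05). In the list, 9 of 17 B cell and plasma cell genes were higher. The B cell marker MS4A1 was not called (1.53, adjusted p = 0.119). The summed T and NK cell list was highest in the day 21 center of animal 2, at 542 CPM against 295 to 341 CPM in the other 5 centers. In skin the sum was 341 to 540 CPM, of which GATA3 alone made up 153 to 344 CPM.

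Interferon-stimulated genes were called higher in 22 of 25, though by little in several. OASL was at 0 to 0.77 CPM (median 0.248) in skin. The day 19 centers had 4.21, 0.348 and 3.37 CPM and the day 21 centers 22.1, 17.2 and 2.55 CPM (log2 fold change 4.65 ± 1.01 (SE), adjusted p = 0.00164). ISG15 was at 8.57 to 23.7 CPM in skin, 73.2, 15.7 and 43.3 CPM on day 19 and 161, 81.0 and 24.4 CPM on day 21 (2.10 ± 0.48). The fold change was larger on day 21 than on day 19 for MX1 (0.47 on day 19 and 2.06 on day 21) and IFI44 (0.93 on day 19 and 1.82 on day 21), a difference between the days that was called for neither of them. Of 12 antigen presentation genes 9 were higher, with CTSS at 3.24 ± 0.33 and SLA-DMB at 1.58 ± 0.18. Of 13 dendritic and Langerhans cell genes 9 were higher, but CD207 (langerin), which defines Langerhans cells, was not (-1.33, adjusted p = 0.0697), and with the animal as a block it was called lower (adjusted p = 0.00772). In the complement list 12 of 23 were higher and 5 lower, the latter near the 24.4% of all genes. C3, a symbol of 2 genes (3.94 ± 0.69), C2 (2.42 ± 0.30) and the receptor C5AR1 (2.88 ± 0.32) were among the higher. The regulators CD55 (-1.87 ± 0.19) and CD59 (-0.51, adjusted p = 0.00906) were lower.

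**Figure D4:**
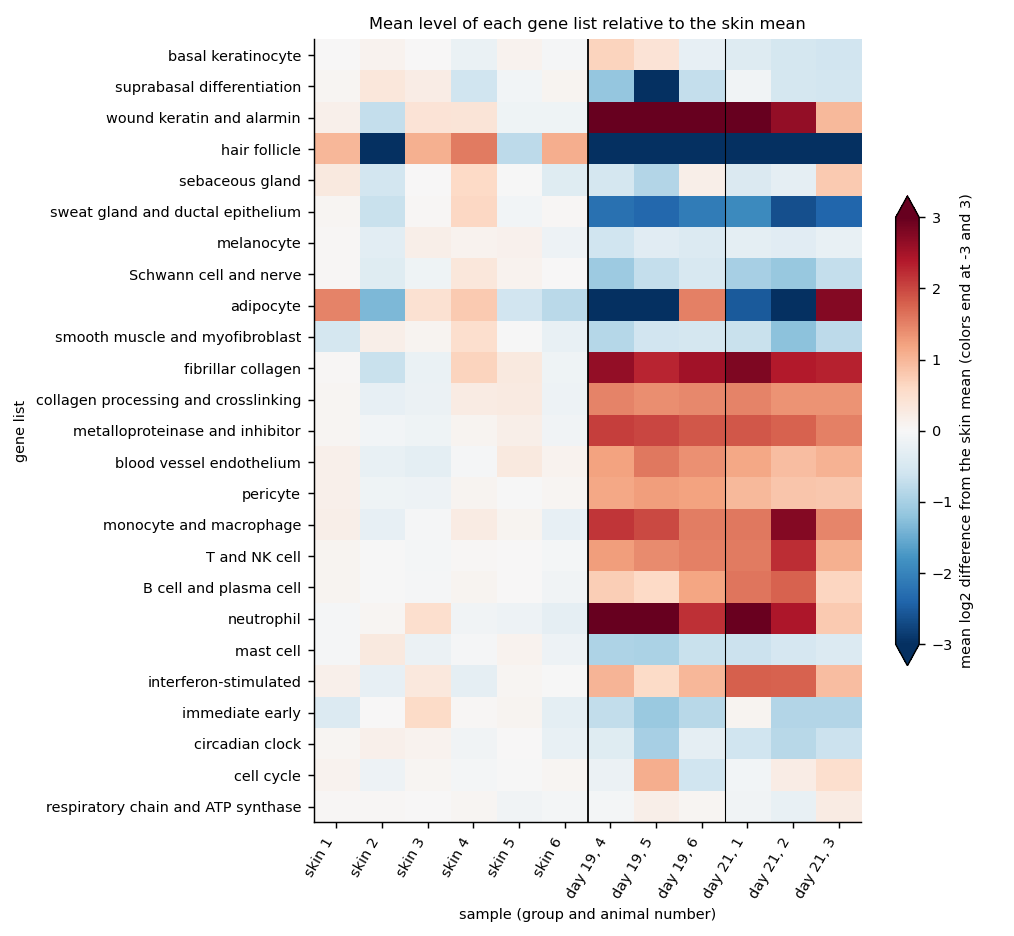
Mean log2 difference of 25 gene lists from their mean in skin, for each of the 12 samples, with red above and blue below skin and colors ending at 3. The 6 centers share high collagen, macrophage and T cell lists and low hair follicle lists, and the fat list is high in the day 19 center of animal 6 and the day 21 center of animal 3.

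Vessel genes were mostly higher than in skin. Of 24 genes of blood vessel endothelium 20 were called higher and 1 lower. APLNR, the apelin receptor, found on venous and sprouting endothelium, was at 7.45 to 25.5 CPM (median 14.8) in skin. Day 19 gave 136, 120.3 and 117 CPM and day 21 91.3, 111 and 105 CPM (log2 fold change 2.87 ± 0.26 (SE), adjusted p = 1.67e-06). ESM1, a marker of tip cells (2.84 ± 0.42), PLVAP, of fenestrated endothelium (1.96 ± 0.18), CDH5 (1.57 ± 0.17) and PECAM1 (1.10 ± 0.15) were higher, and ACKR1, a chemokine receptor of venules, was lower (-0.61 ± 0.14). FLT1 was within 2-fold of skin (0.17, interval -0.091 to 0.42), as was the ligand VEGFA (0.078, interval -0.46 to 0.61). Pericyte genes were higher in 7 of 9, with ABCC9 at 2.30 ± 0.37, KCNJ8 at 2.01 ± 0.29 and RGS5 at 1.70 ± 0.18. Lymphatic genes were higher in 7 of 10, with MMRN1 at 1.51 ± 0.19 and LYVE1 at 1.22 ± 0.26, while PROX1, the regulator that defines lymphatic fate, was not called (0.046, adjusted p = 0.937) and TBX1 was lower (-2.08 ± 0.20).

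Fat genes divided the late centers. Of 15 adipocyte genes 1 was called, the lipase LPL (1.60, adjusted p = 0.0294), which was not called with the animal as a block (adjusted p = 0.0687) or without 4 of 12 single samples (adjusted p up to 0.114). For the other 14 the data set neither a difference nor a level within 2-fold of skin. PLIN1, the coat protein of fat droplets, was at 15.1 to 308 CPM (median 96.6) in skin. Its levels were 0, 0.29 and 297 CPM on day 19 and 1.5, 0.243 and 460.3 CPM on day 21. Thus 1 center of each day was above the median of skin and the other 4 were at 1.5 CPM or less. The depth of the biopsies is not in the labels, and its part was not tested.

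Immediate early genes were mostly lower than in skin. FOS, a factor induced within minutes of a stimulus, was at 138 to 617 CPM (median 212) in skin. In the centers it was at 28.3, 14.0 and 25.3 CPM on day 19 and 27.6, 35.5 and 56.0 CPM on day 21 (log2 fold change -3.17 ± 0.40 (SE), adjusted p = 2.26e-05). FOSB (-2.75 ± 0.64), EGR1 (-1.76 ± 0.39), KLF4 (-1.62 ± 0.20) and MYC (-0.90 ± 0.15) were lower as well. Of 23 genes 14 were lower and 2 higher, FOSL1 (3.39, adjusted p = 0.00502) and SOCS3 (1.10 ± 0.26). In the circadian clock list 8 of 19 were lower and 1 was higher, with HLF at -1.72 ± 0.13, CRY2 at -1.09 ± 0.25 and NPAS2 at 1.02 ± 0.14. The hour of sampling was not used, and handling and hour of the skin and the wound samples cannot be told apart from healing.

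HOX genes, which keep a record of position along the body, differed in 19 of 27 cases, 9 higher and 10 lower. HOXC10, of the lower trunk, was at 0 to 0.765 CPM (median 0.386) in skin. Center levels were 4.27, 2.09 and 4.71 CPM on day 19 and 2.00, 3.15 and 6.26 CPM on day 21 (log2 fold change 3.17 ± 0.54 (SE), adjusted p = 0.000289). HOXA9 (2.93 ± 0.45) and HOXB9 (2.90 ± 0.60) were higher as well. HOXC4 (-2.17 ± 0.27) and HOXC5 (-1.53 ± 0.25), of more anterior regions, were lower. Center levels also differed between wounds that were sampled on the same days. The median of HOXC10 was 3.14 CPM at wound F and 0.107 CPM at G (days 3 and 4), 2.21 CPM at C and 0.301 CPM at J (days 11 and 13), 1.96 CPM at L and 0.161 CPM at A (days 1 and 2) and 3.85 CPM at I (days 19 and 21), with 6 centers each. Not all members followed that order. HOXB9 had a median of 1.14 CPM at I against 1.37 to 2.34 CPM at the other wounds, and HOXC4 had 3.65 CPM at I, above the 1.67 CPM of F, 2.12 CPM of C and 1.05 CPM of L. The late days were sampled at wound I alone, and the labels name no wound or position for the skin samples. For the comparison with skin, position and time after wounding therefore cannot be told apart.

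Of 27 genes of the respiratory chain and ATP synthase all 27 were within 2-fold of skin, with 1 called higher (NDUFA2, 0.43) and 1 lower (NDUFV1, -0.49). Of 34 cell cycle genes 18 were within 2-fold, near the 53.2% of all genes. In that list 3 were called higher, MYBL2 (1.16, adjusted p = 0.014), RRM2 (0.87, adjusted p = 0.0301) and E2F1 (0.75, adjusted p = 0.00889), of which RRM2 was not called without 6 of 12 single samples (adjusted p up to 0.0697). The number called was 11 without the day 19 center of animal 6. MKI67, a marker of dividing cells, was at 27.2 to 53.4 CPM (median 40.5) in skin. It stood at 34.2, 80.1 and 17.6 CPM on day 19 and 41.1, 47.9 and 56.4 CPM on day 21 (0.15, 95% interval -0.47 to 0.77). In cholesterol synthesis 19 of 23 genes were within 2-fold. Called lower were 6, near the 24.4% of all genes, and 2 were higher. Among the higher was MVK (0.55, adjusted p = 0.0369), which was not called without 5 of 12 single samples (adjusted p up to 0.0911). Of 20 hypoxia and glycolysis genes 12 were within 2-fold, also near the 53.2% of all genes, 8 were higher and 1 was lower. The lactate carrier SLC16A3 was at 2.01 ± 0.27 and the prolyl hydroxylase P4HA1 at 1.29 ± 0.18, and 4 of the list were called higher with scaling by library size. In oxidative stress defense 10 of 25 were within 2-fold, below the share of all genes, 8 were higher, led by the heme oxygenase HMOX1 (3.46 ± 0.43), and 9 lower.

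Between day 21 and day 19 no gene was called by edgeR (0.0%), while 1589 had an unadjusted p below 0.05 and DESeq2 called 121 genes, 58 higher and 63 lower. Without the day 19 center of animal 6 edgeR called 33. In 2 genes the days were called against skin in opposite directions, a choice made after their values were seen. THSD1, of endothelial cells, was at 29.5, 31.6 and 31.4 CPM on day 19 and 13.2, 13.3 and 15.8 CPM on day 21, with skin between at 16.7 to 23.5 CPM (adjusted p of the difference between days = 0.0829). The other, without a gene name, had an adjusted p of 0.285.

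Center samples of earlier days came from other wounds of the same animals, and their levels are given on a scale set over all 150 samples. KRT10 had a center median of 41.6 CPM on day 11, 67.6 CPM on day 13, 1123 CPM on day 15 (animals 1 to 3), 69.2 CPM on day 16 (animals 4 to 6), 4366 CPM on day 19 (animals 4 to 6) and 18736 CPM on day 21 (animals 1 to 3), beside 17939 CPM in skin. The median of day 16 was below that of day 15, and day and set of animals cannot be told apart. MMP9 went from its highest median of 3405 CPM on day 11 to 328 CPM on day 21, and CXCL8 from 1739.7 CPM on day 3 to 10.3 CPM on day 21, both above skin. TNC stayed between 1884 and 3046 CPM from day 4 on, and ADAM12 had its highest median on day 21. PRSS35 went from 5.00 CPM on day 3 to 724 CPM on day 13 and stayed near there. LRRC15 went from 0.172 CPM on day 1 to 31.8 CPM on day 21. It was still below the skin median of 133 CPM but within the skin range of 2.04 to 244.5 CPM. AOX4 was at or below 0.402 CPM through day 16 and at 6.3 and 4.44 CPM on the last days. These medians are of 6 samples on most days and 3 on days 15, 16, 19 and 21. They come from different wounds and animals and are given without a test.

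**Figure D5:**
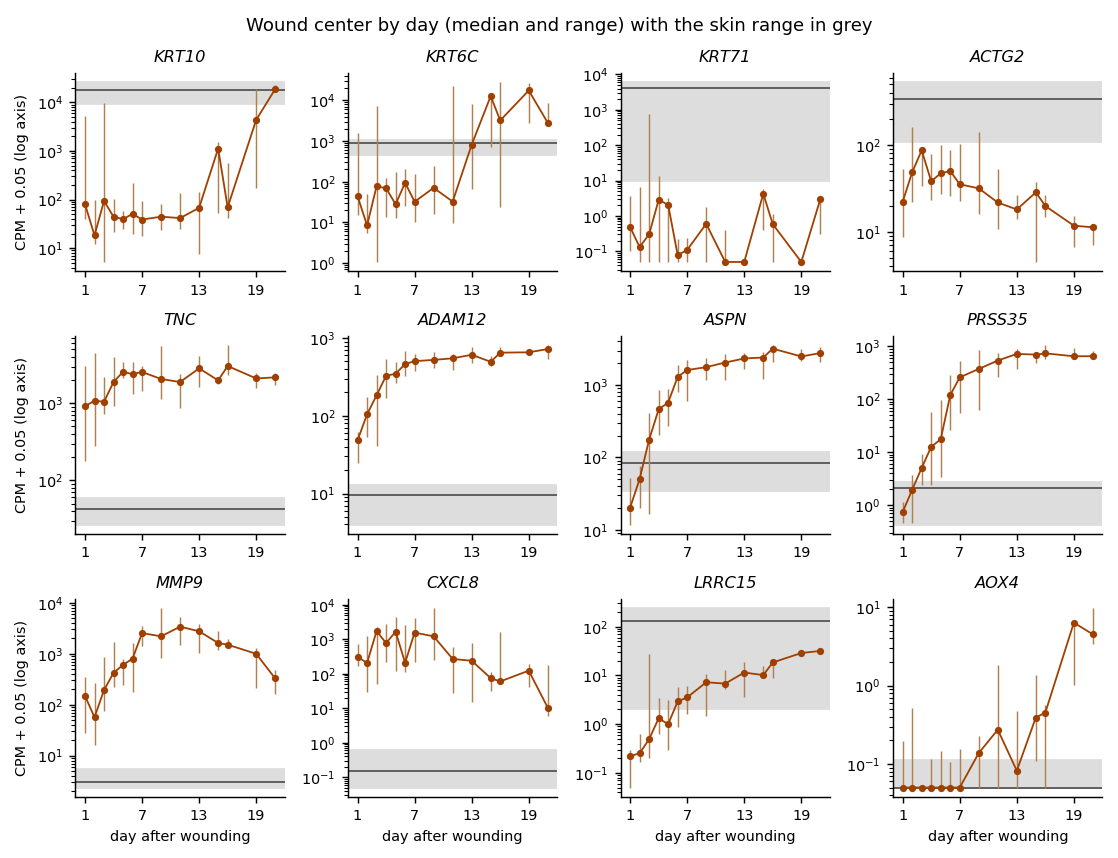
Center expression of 12 genes by day after wounding on a logarithmic axis of CPM + 0.05, with the median as points and the lowest to highest sample as bars, and the range of the 6 skin samples as a gray band. KRT10 enters the band by day 21, the medians of KRT71 and ACTG2 stay below it on every day, and TNC, ADAM12, ASPN, PRSS35 and MMP9 end above it.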

How the data were processed

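The authors deposited a table of counts, the whole number of reads on each of 30461 genes in 150 samples, made by the sequencing provider. The aligner, the counting tool and the genome build are not given in the sources used here. A table of FPKM values was not used. Gene symbols stand in the table for 12300 genes and were taken from the protein match in the description for 9387 more, so a symbol can be shared. Members of groups and gene lists were chosen with earlier results of these data known.

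Counts of the 12 samples were filtered by filterByExpr (minimum count 10, minimum total 15), scaled by TMM and tested with the quasi-likelihood test of edgeR 4.0.16 in R 4.3.3. Benjamini-Hochberg adjusted p below 0.05 was required, over all 14746 genes. Intervals are 95% intervals of the log2 fold change, and CPM are TMM-scaled. The days were tested in 1 fit with 3 groups. Genes named were the 12 with the largest called difference in each direction and the 3 most changed called members per list and direction (at least 1 CPM), beside KRT10. The 12 also needed at least 5 CPM in the higher group, at least 2 counts in each of its samples and no overlap between center and skin. Their lack of overlap is therefore no result. Others were named as members of lists to describe their roles. A fold against a group with 0 counts was computed from the mean of the other group against 3 counts per library.

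The same animal gave skin and center, so the animal pairs the samples. Deviations of such pairs from their group means had a mean correlation of 0.00623 (6 pairs, -0.149 to 0.0997) against -0.00214 for 30 pairs of different animals. Alternatives were DESeq2 1.42.0, other scalings and filters, all 150 samples in 1 fit, the animal as replicate block, each sample left out and, added after seeing the data, each set of animals alone and the KRT6C-rich or fat-rich samples left out. The fits were also run on simulated counts in which few genes changed, in equal numbers in each direction. In the data 49.6% of genes were called, so the simulation cannot show how the scaling behaves here. The p-values of the main comparisons measure the spread between animals, since each group held 1 sample per animal. In the fit of all 150 samples most earlier days held more than 1 wound per animal, counted as separate samples. Its p-values mix the spread between wounds with that between animals. With the animal as replicate block, p-values measure the spread left after differences between animals are taken out. Values of some genes are not reported here.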

Additional observations from a re-analysis of the deposited data

Results flagged for a closer look

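In each group of 6 samples the highest and lowest value were compared with the others by Dixon's ratio at the 95% level, which flags about 1 group in 20 by chance. Of 143 groups, 21 had a sample apart, where chance would give 7.15 if the groups were independent and normally distributed. That did not hold here, since several hair genes flagged the same skin sample and a single nonzero value among zeros is always flagged. The 21 are therefore not read as an excess over chance.

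The skin of animal 2 accounted for 9 of these. Its mean correlation with the other skin samples was 0.945 (others 0.965 to 0.972). It lay below the other skin samples in the hair genes KRTAP9-3 (0.565 against 433 to 2681 CPM), KRTAP3-3 (1.75 against 1153 to 1830 CPM), KRT31 (2.52 against 178 to 1644 CPM), TCHH (1.23 against 162 to 615 CPM), KRT74 (0.616 against 262 to 1064 CPM) and PRR9 (0.924 against 186 to 1224 CPM). PRSS35 was lower (0.359 against 1.88 to 2.55 CPM) and MMP9 higher (5.19 against 2.19 to 3.02 CPM) in the same sample.

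The day 19 center of animal 5 was lowest in KRT10 (167 against 4198 to 22249 CPM), in the summed suprabasal list (3371 against 19711 to 56253 CPM) and in the summed hair follicle list (77.0 against 153 to 178 CPM). The day 21 center of animal 3 was highest in the summed sebaceous list (7188 against 381 to 761 CPM) and in TCHH (0.212 against 0 to 0.058 CPM). The day 21 center of animal 2 was highest in the summed T and NK cell list (542 against 295 to 341 CPM), the summed dendritic and Langerhans cell list (176 against 112 to 132 CPM) and KRTAP11-1 (0.243 against 0 to 0.053 CPM).

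The rest lay near the limit of detection. In skin they were CXCL8 in animal 3 (0.533 against 0 to 0.154 CPM), AOX4 in animal 3 (0.0592 CPM against 0 in the others) and ERP27 in animal 1 (0.0991 CPM against 0 in the others). In the centers it was POL, a symbol shared by 452 genes of the table, in animal 4 (0.702 against 0 to 0.191 CPM).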

How the results depend on the processing

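With the animals of day 19 alone (3 pairs), 2392 genes were higher and 2000 lower, and with those of day 21 alone 2283 were lower, in fits with fewer samples. The counts of day 19 against skin fell to 1850 higher and 1246 lower without both KRT6C-rich samples, which leaves 1 sample on that day that is assumed to vary like the others, and its lower genes numbered 1978 with the animal as replicate block. Between the days DESeq2 called 121 genes, 8 were called without both fat-rich samples, and leaving out 1 sample at a time gave 0 to 33. Requiring the interval within 1.5-fold of skin left 4061 genes. Without both KRT6C-rich samples the log2 fold change of KRT10 was 0.12 (adjusted p = 0.7). With the block, late counts were 3447 higher and 3444 lower, and of the genes chosen by rule CA2, EREG, HOXA2, LPL, LRRC15, PMEL, PMVK and TNNI2 lost their calls. Of the others described, ACTA2, MSX2 and POSTN lost and CD207 gained a call. With each sample left out the late counts were 3487 to 3657 higher and 3259 to 3637 lower. Under the alternative fits there were 4967 values of 216 genes chosen by rule. Of these, 4740 kept direction and side of the threshold, 226 lost the call and 1 reversed. The causes were not tested. List counts moved by over 1.5 times in 228 of 2208 cases. With all 150 samples in 1 fit, skeletal muscle genes called lower went from 3 to 0, suprabasal genes from 5 to 2, basal genes from 3 to 0 and HOX genes called higher from 9 to 14. Depth limits what can be said of genes under about 0.191 CPM, and 3 samples a day limit the comparison of days.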
